A study of Homo sapiens with 12 samples.

Results

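The NF-kappaB regulators and feedback genes described here are 10 genes, TNFAIP3, IRAK2, ZC3H12A, BIRC3, NFKBIA, NFKB1, NFKB2, RELB, TNFAIP2 and TNIP1, out of 13588 genes with values in the deposited tables. They were matched by gene symbol and had been chosen from their FPKM in these same libraries, so their changes are given as a description. Where calls on them from a fit over all genes are counted below, those calls restate that choice and are not evidence. The study measured RNA from MCF-12A, an established human line of non-tumour breast epithelial cells, in 6 libraries labelled TGFbeta1 and 6 labelled control, the design text naming vehicle as the comparison. The values came in 2 tables, a first set with controls 1 to 3 and TGFbeta1 libraries 1 to 3, and a second set with those numbered 4 to 6. FPKM, the unit throughout, counts fragments relative to the length of the transcript and the library's total, and the transcripts of a gene were summed. The labels give no dose, no duration and no word on whether replicates came from separate cultures, so p-values measure the spread between these libraries, which may be technical.

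NF-kappaB is a family of dimeric transcription factors that is held in the cytoplasm by inhibitor proteins and freed when receptors for TNF, interleukin-1 or microbial products activate the IκB kinases. In the canonical pathway the inhibitor IκBα is degraded, while in the noncanonical pathway the precursor p100 is processed to p52, which pairs with RelB. The factors induce many of their own inhibitors, so a set of feedback genes is switched on together with the inflammatory targets. In breast epithelium the pathway is known for roles in mammary gland development and in inflammatory gene expression. TGFbeta1 is a cytokine that signals mainly through receptor kinases and SMAD proteins.

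The promoters of these genes are shown first because several hold matches to the κB consensus, the motif that NF-kappaB dimers recognise. The 250 bases before each RefSeq start (GRCh38.p14) were searched on both strands for the κB consensus, and overlapping matches were kept. Windows were found for 9 of the 10 genes, RELB being the exception, and some genes have several starts, giving 13 windows. Of these, 7 held at least 1 match (53.8%), against 1828 of 35116 promoters of all genes (5.21%) and 36 of 164 windows of the other NF-kappaB pathway genes examined below (22%). At least 2 matches occurred in 4 of the 13 windows (30.8%), against 0.635% of all promoters. Of the windows of the other pathway genes, 12 of 164 held as many (7.32%). These 4 windows belong to TNFAIP3, BIRC3 and NFKB2, the last with more than 1 start. The 6 genes with a match were TNFAIP3, BIRC3, NFKBIA, NFKB1, NFKB2 and TNIP1, and the windows of IRAK2, ZC3H12A and TNFAIP2 held none. A match is a resemblance in letters and no measurement of binding.

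Each of TNFAIP3, BIRC3 and NFKBIA has a single RefSeq window, and these are printed in the direction of transcription with the matches in capitals, since they stand for 3 roles (ubiquitin editor, ubiquitin ligase and inhibitor) whose values are given below. They lie at chr6:137867009-137867258 (plus strand), chr11:102317234-102317483 (plus strand) and chr14:35404750-35404999 (minus strand).
TNFAIP3: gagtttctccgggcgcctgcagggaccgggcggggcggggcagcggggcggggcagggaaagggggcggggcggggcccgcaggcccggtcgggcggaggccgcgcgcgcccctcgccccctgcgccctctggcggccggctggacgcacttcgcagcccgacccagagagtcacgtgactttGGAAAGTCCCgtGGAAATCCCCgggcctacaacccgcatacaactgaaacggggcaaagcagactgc
BIRC3: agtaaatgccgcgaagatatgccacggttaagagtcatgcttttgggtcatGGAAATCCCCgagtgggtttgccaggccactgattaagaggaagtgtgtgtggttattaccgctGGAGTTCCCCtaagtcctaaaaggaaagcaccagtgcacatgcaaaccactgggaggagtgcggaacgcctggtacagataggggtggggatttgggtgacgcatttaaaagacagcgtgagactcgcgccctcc
NFKBIA: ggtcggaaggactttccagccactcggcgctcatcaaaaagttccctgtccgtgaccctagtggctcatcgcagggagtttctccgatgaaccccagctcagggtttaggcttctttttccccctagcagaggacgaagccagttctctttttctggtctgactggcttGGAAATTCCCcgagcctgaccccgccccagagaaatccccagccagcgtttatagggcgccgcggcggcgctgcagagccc
All 5 matches in these windows are on the antisense strand. In TNFAIP3 the matches lie 67 to 58 and 55 to 46 bases before the start, 2 bases apart. In BIRC3 they lie farther out, at 199 to 190 and 135 to 126 bases, and in NFKBIA at 81 to 72 bases.

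Read along the strand of the match, the same words recur between genes, as the following lines show.
TNFAIP3, TNIP1 and NFKB2: GGGACTTTCC
TNFAIP3 and BIRC3: GGGGATTTCC
NFKBIA and NFKB1: GGGAATTTCC
BIRC3 alone: GGGGAACTCC
NFKB1 had its match 49 to 40 bases before the upstream of its starts and TNIP1, a minus-strand gene, 42 to 33 bases before the upstream of its starts, both on the sense strand. NFKB2 held matches before its second start, at 107 to 97 bases on both strands and at 78 to 69 bases, and before the last of its starts, at 176 to 167 and 21 to 12 bases. TNFAIP3 and BIRC3 share the word GGGGATTTCC and, among the first-set libraries described below, lay on opposite sides of their controls.

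**Figure D1:**
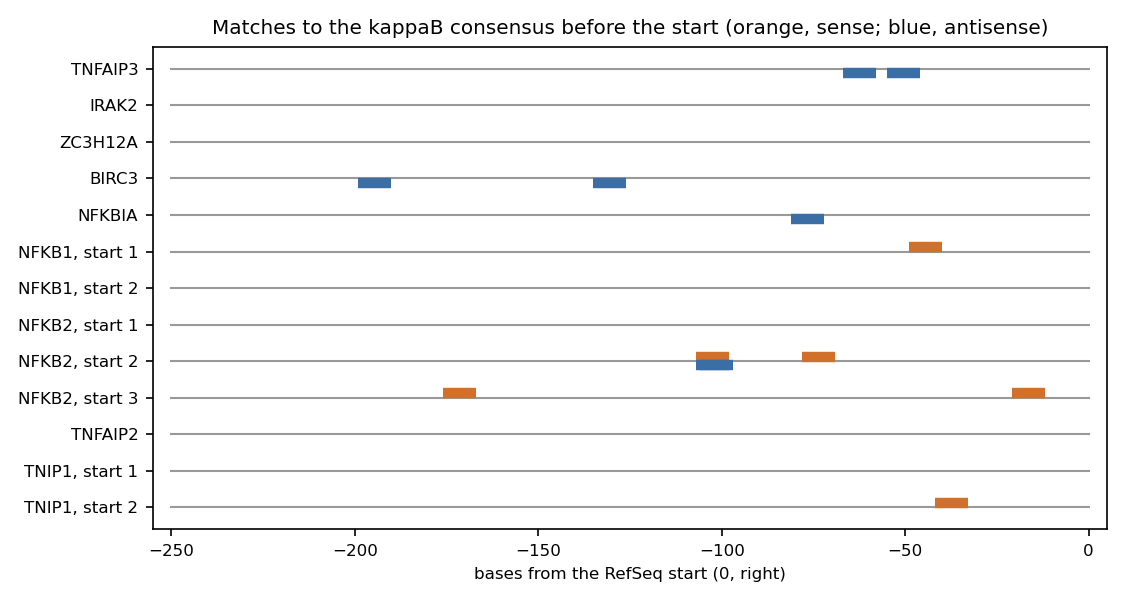
Positions of matches to the κB consensus in the 250 bases before each RefSeq start of the 9 genes with a window; the x axis is the distance to the start in bases and each row is 1 start, numbered by coordinate. 7 of the 13 windows held a match, and those of IRAK2, ZC3H12A and TNFAIP2 held none.

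All 10 genes had a mean of at least 1 FPKM over the libraries of each set. In the controls of the first set the order of levels was TNIP1, NFKBIA, NFKB2, TNFAIP2, NFKB1, ZC3H12A, RELB, TNFAIP3, BIRC3 and IRAK2, from 41.8 ± 7.69 down to 0.753 ± 0.0677 FPKM (SD, n = 3). Neighbours in that order did not overlap, except ZC3H12A with RELB and TNFAIP3 with BIRC3. In the controls of the second set the order was NFKBIA, TNIP1, NFKB2, TNFAIP2, ZC3H12A, NFKB1, TNFAIP3, RELB, IRAK2 and BIRC3, from 73.5 ± 11.1 down to 4.16 ± 0.225 FPKM (SD, n = 3), and ZC3H12A overlapped with both TNFAIP2 and NFKB1. Log2 changes below are differences of the mean of log2(FPKM + 1), a scale that understates changes of low genes, and are followed by their standard error. In bulk RNA, fewer cells expressing a gene and less RNA of it per cell cannot be told apart.

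Before the changes, the labels were checked with genes that TGFbeta1 is known to induce. In the first set all 4 rose (SMAD7, SKIL, TGFBI and ITGB6), with log2 changes from 1.27 to 3.70 and limma adjusted p from 6.74e-05 to 0.00199. SKIL, a feedback regulator of SMADs, went from 5.80, 5.89 and 5.53 FPKM to 24.1, 23.9 and 23.1. In the second set none of the 4 passed (limma adjusted p from 0.288 to 0.985; TGFBI, at a log2 change of -1.42, is the 1 gene with unadjusted p under 0.05), and SKIL stood at 3.999, 4.60 and 4.05 FPKM in controls and 3.72, 4.203 and 3.92 FPKM with the agent. The treated libraries of that set are therefore called the libraries labelled TGFbeta1. All 8 mammary epithelial markers exceeded 1 FPKM on average in every group, their summed level being 2500 to 3237 FPKM in controls and 1904 to 2208 FPKM with TGFbeta1 among first-set libraries, and 1696 to 1936 and 1796 to 1964 FPKM in the second. Of 7 leukocyte markers, 4 had values in the first table and 3 in the second table, with summed levels of 26.5 to 27.3 and 19.2 to 22.5 FPKM in the first set and 20.1 to 20.5 and 15.7 to 24.1 FPKM in the second (controls, then TGFbeta1); PTPRC, CD3E and ITGAM were not analysed here, nor was LYZ in the second set. Single markers of the first set differed in direction: CD14 (log2 change -1.28, limma adjusted p = 0.00123) and CD68 (-0.48, limma adjusted p = 0.0306) fell and CSF1R rose (1.01, limma adjusted p = 0.0023), while the epithelial markers EPCAM (-1.03, limma adjusted p = 0.000638) and KRT5 (-0.64, limma adjusted p = 0.00199) fell. Of the other epithelial markers in the first set, KRT8 and TP63 had higher means with TGFbeta1. KRT8 went from 71.5 ± 18.9 to 143.8 ± 99.3 FPKM and TP63 from 22.3 ± 1.99 to 27.4 ± 4.90 FPKM (SD, n = 3). The means of KRT14, KRT17, KRT18 and CDH1 were lower, and CDH1 was not called (limma adjusted p = 0.0771). Of the fibroblast markers, DCN rose in the first set (log2 change 1.21, limma adjusted p = 0.0142) and fell in the second (log2 change -1.14, limma adjusted p = 0.038). The mean of DCN went from 0.594 to 2.78 FPKM in the first set and from 28.55 to 12.45 FPKM in the second. PDGFRA, with values in the second set only, went from 1.31 to 0.692 FPKM. The part of these levels in the changes below was not tested.

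Among these genes, TNFAIP3, ZC3H12A and IRAK2 had the largest first-set differences, and the feedback genes are described first. TNFAIP3 encodes A20, which edits ubiquitin chains on signalling complexes and so ends NF-kappaB activation (hg19 chr6:138188325-138204449). In the first set it stood at 2.46, 2.39 and 2.63 FPKM in controls and 9.69, 9.96 and 11.3 FPKM with TGFbeta1. Every treated library was above every control, from 2.49 ± 0.122 to 10.3 ± 0.880 FPKM (SD, n = 3), a 4.14-fold ratio and a log2 change of 1.70 (SE 0.089). The second set held 10.9, 11.5 and 10.3 FPKM in controls and 15.1, 17.7 and 14.3 FPKM in the libraries labelled TGFbeta1. Again the groups did not overlap, but the ratio was 1.44 and the log2 change 0.48 (SE 0.0957).

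ZC3H12A encodes regnase-1, an RNase that degrades inflammatory mRNAs (hg19 chr1:37940153-37949980). Its first-set values were 4.82, 6.16 and 5.59 FPKM in controls and 15.8, 16.1 and 15.1 FPKM with TGFbeta1. All 3 treated libraries lay far above the controls, a 2.84-fold ratio and a log2 change of 1.36 (SE 0.0983). Second-set values went from 13.2, 16.4 and 13.3 FPKM to 20.4, 20.0 and 20.1 FPKM, without overlap, a log2 change of 0.48 (SE 0.0956).

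TNIP1 encodes ABIN1, a ubiquitin-binding partner of A20 (hg19 chr5:150409506-150473138). The first set held 38.6, 36.3 and 50.6 FPKM in controls and 58.7, 59.2 and 59.8 FPKM with TGFbeta1. The groups did not overlap, and control 3 was the nearest to the treated libraries, a log2 change of 0.51 (SE 0.132). In that control 32.1 FPKM of the total came from the transcript TNIP1-004, which held 5.47 and 3.83 FPKM in the other controls and 5.52 to 7.35 FPKM in treated libraries. Among second-set libraries, 57.0, 53.6 and 45.9 FPKM in controls stood beside 69.3, 67.2 and 54.5 FPKM, and the groups overlapped (log2 change 0.28, SE 0.124).

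NFKBIA encodes IκBα, the inhibitor that holds canonical dimers in the cytoplasm (hg19 chr14:35870717-35873952, minus strand). NFKBIA went in the first set from 30.4, 31.2 and 28.0 FPKM in controls to 54.8, 56.5 and 50.4 FPKM with TGFbeta1. The groups were well separated, from 29.9 ± 1.68 to 53.9 ± 3.12 FPKM (SD, n = 3), a log2 change of 0.83 (SE 0.077). Second-set controls were already at 62.9, 72.6 and 85.0 FPKM, and the libraries labelled TGFbeta1 at 86.2, 75.8 and 79.9 FPKM. These overlapped, with a log2 change of 0.14 (SE 0.118), which was 0.035 without control 4, 0.25 without control 6 and 0.092 without replicate 4 labelled TGFbeta1.

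IRAK2, a kinase-like adaptor downstream of interleukin-1 and Toll-like receptors (hg19 chr3:10206549-10285427), had the highest ratio in the first set. It stood at 0.719, 0.831 and 0.709 FPKM in controls and 3.98, 4.07 and 3.59 FPKM with TGFbeta1, a 5.15-fold ratio and a log2 change of 1.48 (SE 0.0889), or 2.22 with a pseudocount of 0.1 in place of 1. All 3 control values were below 1 FPKM, and no treated library came near them. Second-set controls stood at 6.33, 7.01 and 5.12 FPKM, above every treated library of the first set, and the libraries labelled TGFbeta1 at 8.70, 8.66 and 7.84 FPKM. The groups did not overlap there either, with a 1.37-fold ratio and a log2 change of 0.40 (SE 0.117).

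BIRC3 lay below its controls in the first set and above them in the second. It encodes cIAP2, a ubiquitin ligase of TNF receptor complexes that also helps to keep the noncanonical kinase NIK low (hg19 chr11:102188226-102208465). First-set levels were 2.12, 2.06 and 2.43 FPKM in controls and 1.34, 1.43 and 1.46 FPKM with TGFbeta1, lower in each treated library, a log2 change of -0.41 (SE 0.0903). The second set had 4.40, 4.13 and 3.96 FPKM in controls and 10.7, 10.1 and 8.72 FPKM in the libraries labelled TGFbeta1. All 3 were above every control, from 4.16 ± 0.225 to 9.86 ± 1.03 FPKM (SD, n = 3), a log2 change of 1.07 (SE 0.0958). BIRC3 has 1 transcript in each table, so transcript summing plays no part in this contrast.

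Of the Rel subunits, NFKB2 encodes p100, the precursor of p52 (hg19 chr10:104153867-104162286). It went from 20.9, 21.2 and 23.2 FPKM to 30.9, 30.4 and 30.2 FPKM (first set) and from 26.4, 23.9 and 24.6 FPKM to 30.3, 35.3 and 34.3 FPKM in the second. The groups were apart in both, and the log2 changes of 0.47 (SE 0.0682) and 0.40 (SE 0.0788) lay close together. RELB encodes the noncanonical partner of p52 (hg19 chr19:45504688-45541456). First-set values were 4.51, 5.03 and 4.24 FPKM in controls and 9.33, 5.97 and 7.42 FPKM with TGFbeta1. The treated libraries were all higher but widely spread, a log2 change of 0.60 (SE 0.16). RELB went in the second set from 8.72, 8.25 and 7.96 FPKM to 10.7, 11.9 and 9.98 FPKM, without overlap, a log2 change of 0.35 (SE 0.0844).

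NFKB1 encodes p105, the precursor of p50 (hg19 chr4:103422486-103538459). First-set controls were nearly identical, at 12.65, 12.64 and 12.61 FPKM, and the treated libraries at 14.6, 14.4 and 14.0 FPKM. The groups did not overlap, but the log2 change was 0.17 (SE 0.0615). For the second set it was again 0.17 (SE 0.0765), with controls at 13.9, 15.01 and 12.9 FPKM and the libraries labelled TGFbeta1 at 14.9, 16.2 and 16.2 FPKM, and here the groups overlapped.

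TNFAIP2, a TNF-induced gene with a role in membrane protrusions (hg19 chr14:103589798-103603776), was the gene of this group whose mean was lower in both sets. In the first set it stood at 14.6, 15.3 and 16.5 FPKM in controls and 12.7, 15.1 and 11.9 FPKM with TGFbeta1, overlapping, a log2 change of -0.21 (SE 0.107), or -0.13 with an equal sum per library. In the second set the controls of 19.5, 16.9 and 15.5 FPKM were all above the 13.1, 13.9 and 11.4 FPKM of the libraries labelled TGFbeta1. The log2 change there was -0.41 (SE 0.113).

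**Figure D2:**
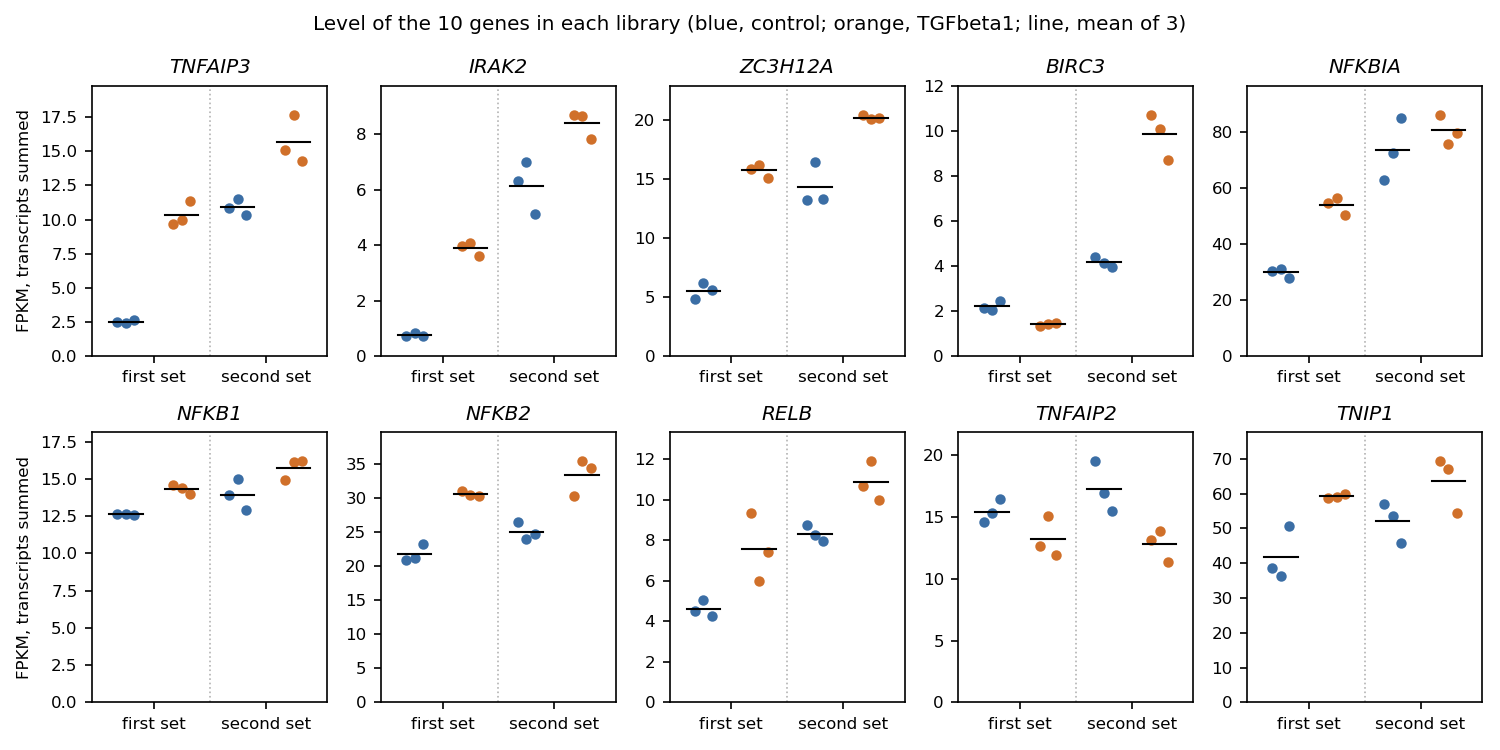
FPKM (linear axis from 0) of each of the 10 genes in each library, with transcripts summed, for the control and TGFbeta1 libraries of the first and second set; points are libraries and lines are means of 3. The TGFbeta1 libraries of the first set lie above their controls for 8 genes, TNFAIP3 going from 2.49 to 10.3 FPKM, and the controls of the second set start higher for TNFAIP3, IRAK2, ZC3H12A and NFKBIA.

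By the threshold of limma adjusted p under 0.05, 6 of the 10 genes were called higher in the first set (TNFAIP3, IRAK2, ZC3H12A, NFKBIA, NFKB2 and TNIP1) and 1 lower (BIRC3). Among all 10454 genes tested, 9.00% were called higher and 11.9% lower. The groups did not overlap for 8 genes that were higher and 1 that was lower, where over all genes 18.2% were higher and 25.1% lower without overlap. In the second set 1 gene of the 10 was called, BIRC3, higher, against 0.170% of 10579 genes. Groups did not overlap there for 6 genes that were higher and for TNFAIP2, which was lower, against 9.71% and 9.62% of all genes. These counts come from the fit over all genes, restate how the 10 genes were chosen and are not evidence about them. The call of BIRC3 as lower was lost when any 1 of the 6 libraries of the first set was left out, and its call as higher was lost without control 4, 5 or 6 or without replicate 4 or 5 labelled TGFbeta1. The median log2 change of the 10 genes was 0.55 (first set) and 0.37 (second set), beside -0.05 and -0.00031 over all genes tested.

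**Figure D3:**
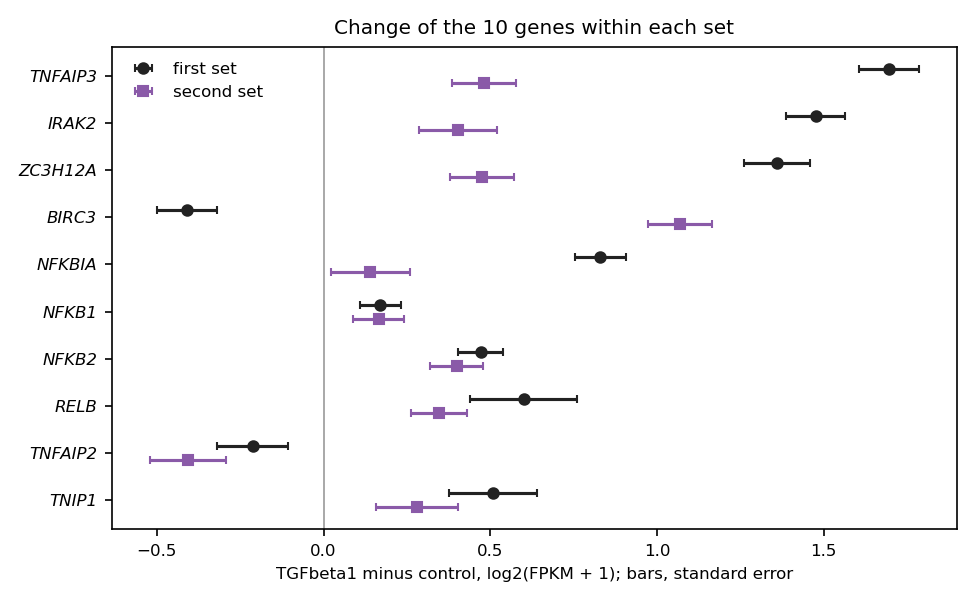
Log2 change of each gene, TGFbeta1 against control, with its standard error, in the first and second set; n = 3 libraries a group. BIRC3 lies at -0.41 (first set) and 1.07 (second set), while NFKB1, at 0.17 in both, differs least.

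The controls of the second set already stood higher for several of these genes. Over transcripts listed in both tables, the control mean of IRAK2 was 0.753 FPKM in first-set libraries and 6.15 FPKM in second-set libraries, a log2 difference of 2.02. TNFAIP3 stood at 2.11 and 10.01 FPKM (1.83), ZC3H12A at 5.36 and 14.3 FPKM (1.26), NFKBIA at 29.9 and 73.5 FPKM (1.26), and RELB at 3.45 and 8.31 FPKM (1.07). The remaining differences were 0.71 for TNIP1, 0.69 for BIRC3, 0.19 for NFKB2, 0.18 for TNFAIP2 and 0.14 for NFKB1. Thus 5 of the 10 genes had control levels at least 1 log2 unit higher in the second set, as did 11.7% of 9490 genes with such transcripts, whose median difference was 0.023. The restriction leaves out transcripts listed in 1 table only. With all transcripts, RELB controls stood at 4.59 and 8.31 FPKM, less than 1 log2 unit apart. TNIP1 controls then stood at 41.8 and 52.1 FPKM, against 23.3 ± 16.3 and 34.7 ± 10.8 FPKM (SD, n = 3) over shared transcripts. The tables were normalised separately, so these are levels set side by side with no test. FPKM is relative to transcript length, and the leading transcript of TNFAIP3, NFKBIA and RELB differed between the sets, as described next. IRAK2 had the same single transcript in both. The part of such differences in these control levels was not tested. In percentile terms, TNFAIP3 lay at the 33.4th percentile of genes in the controls of the first set and at the 59.7th in those of the second.

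The genes with several transcripts were also split differently in the 2 tables. Of the 7 genes with at least 2 transcripts in both, 6 had a different leading transcript in the controls, NFKB2 being the exception, whereas 43.6% of 6884 such genes did. For NFKBIA, ENST00000216797 held 96.1% of the gene's FPKM in the controls of the first set and 4.4% in those of the second, while ENST00000557389 held 1.2% and 90.8%. For RELB, ENST00000505236 held 8.4% and 92.4%, and for NFKB1, ENST00000394820 held 32.9% and 86.1%. Between the groups of a set, NFKBIA's leading transcript held 96.1% in controls and 88.2% with TGFbeta1 in the first set, and 90.8% and 90.6% in the second. The lower first-set mean came from TGFbeta1 replicate 2, at 72.7%, while replicates 1 and 3 held 95.0% and 96.9%. The sums per gene, used above, include every transcript. Limiting every gene to the transcripts in both tables is among the alternatives of the closing section.

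**Figure D4:**
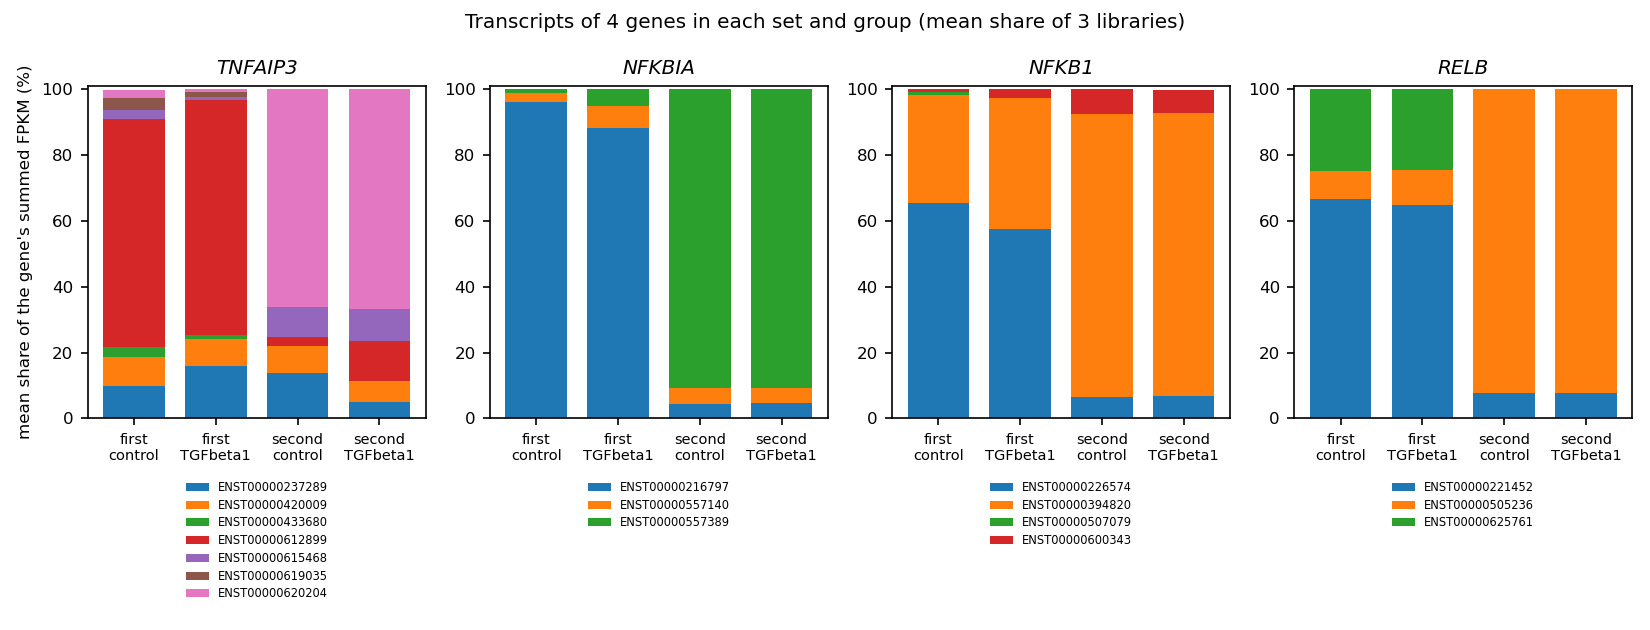
Share of each gene's FPKM held by each transcript in the control and TGFbeta1 libraries of each set, in percent, for 4 of the genes with several transcripts (TNFAIP3, NFKBIA, NFKB1 and RELB); bars are means of 3 libraries. The leading transcript differs between the sets for all 4, and for NFKBIA the share of ENST00000216797 goes from 96.1% to 4.4% in controls.

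Genes that moved most like TNFAIP3 were sought by Pearson's r over the 12 libraries, after subtracting each gene's mean in its set, among 9990 genes. The closest were SEC24D, a coat protein of secretory vesicles (0.989), the cytokine gene IL1B (0.988), IRAK2 (0.982), the urokinase gene PLAU (0.981) and INHBA, an activin subunit (0.981). The points share treatment, so r largely follows the contrast and no p is given. Of the other genes in the group, ZC3H12A was closest after IRAK2 (0.975), and NFKBIA (0.904), NFKB2 (0.875), RELB (0.851), TNIP1 (0.834) and NFKB1 (0.769) followed. BIRC3 (-0.074) and TNFAIP2 (-0.538) were not alike.

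The rest of the pathway was examined in 131 other genes grouped as ligands, receptors, adaptors and kinases, Rel and IκB proteins, feedback genes, and targets, a list written with earlier results of these data in view. In the first set 87 were tested, of which 20 rose and 3 fell by limma adjusted p under 0.05. That is 26.4% in all, where 20.9% of all genes were called in either direction. By direction, 20 of the 87 rose, beside 9.00% of all genes, and 3 of the 87 fell, beside 11.9%. Since the list was written with earlier results in view, these shares were not tested against each other. The pathway genes' median log2 change was 0.13, beside -0.05 over all genes. The targets made up most of the rises: 11 of 23 tested rose, 1 fell, and their median log2 change was 1.03. Among adaptors and kinases 2 of 26 fell, among feedback genes 2 of 19 rose, and among receptors 4 of 9 rose.

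Among the targets and ligands, IL1B, which encodes the cytokine interleukin-1 beta, had controls of 12.5, 12.4 and 12.4 FPKM and TGFbeta1 libraries of 71.9, 71.7 and 76.2 FPKM in the first set (log2 change 2.47, limma adjusted p = 4.78e-05). It rose in every treated library. PLAU rose from 27.6 ± 7.67 to 260.9 ± 3.08 FPKM, and IL32, a cytokine gene, from 1.48 ± 0.463 to 21.9 ± 2.35 FPKM (SD, n = 3; limma adjusted p = 0.000478 and 0.000199). MMP9, a secreted protease gene, had 5.33, 5.83 and 5.37 FPKM with TGFbeta1, and was listed at 0 in 2 of the 3 controls and at 0.025 FPKM in the other (limma adjusted p = 6.74e-05; its log2 change was 2.69, or 5.70 with pseudocount 0.1). CXCL8, a neutrophil chemokine gene, rose from 1.33, 1.37 and 2.67 FPKM to 8.66, 27.9 and 34.1 FPKM (limma adjusted p = 0.0142, lost without control 1 or 2 or TGFbeta1 replicate 2, at 0.052 to 0.0524). LCN2, which encodes the siderophore-binding protein lipocalin-2, fell from 95.4, 92.3 and 91.9 FPKM to 0.769, 0.645 and 0.765 FPKM (log2 change -5.77, limma adjusted p = 5.47e-06).

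Among the signalling proteins, MAP3K14, which encodes the noncanonical kinase NIK, fell from 5.33 ± 0.581 to 2.11 ± 0.342 FPKM (SD, n = 3), a log2 change of -1.03 (limma adjusted p = 0.00393). IRAK1, the kinase that works with IRAK2, fell from 44.0 ± 3.91 to 31.3 ± 2.69 FPKM (log2 change -0.48, limma adjusted p = 0.023), which 4 of the 6 omissions of 1 library ended (control 1, control 2, TGFbeta1 replicates 2 and 3; 0.0583 to 0.0767). Of the Rel and IκB group, 1 of 7 rose, NFKBIZ, which encodes an inducible atypical IκB, from 3.77 ± 0.592 to 7.72 ± 0.593 FPKM (log2 change 0.88, limma adjusted p = 0.00618). RELA, which encodes p65, showed no call, with 6.20, 12.9 and 18.8 FPKM in controls and 17.3, 9.83 and 17.2 FPKM with TGFbeta1 (limma adjusted p = 0.673). REL stood at 1.79 ± 0.341 and 1.74 ± 0.217 FPKM (SD, n = 3; limma adjusted p = 0.915).

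Because the counts of these groups are small, their genes are named after their values were seen. The receptors that rose were IL1R1, IL1RAP, TLR2 and TNFRSF10B, and the ligands IL1B and TNFSF12. In the group listed as feedback genes, CYLD and TNFAIP8 rose, and a feedback role of TNFAIP8 was not examined here. TLR2 was listed at 0 in control 2 and stood at 2.81 and 3.10 FPKM in the other controls, and at 11.8, 12.3 and 12.2 FPKM with TGFbeta1 (limma adjusted p = 0.0348, and 0.127 with pseudocount 0.1). IL1B, IL1R1 and TNFRSF10B kept their call when any 1 library was left out. CYLD lost its call in all 6 such omissions, IL1RAP, TNFSF12 and TNFAIP8 in 5 and TLR2 in 4, at limma adjusted p up to 0.135. Each of these genes also lost its call with a replicate block.

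In the second set 88 of the 131 genes were tested. IL1B and LCN2 rose, 2 genes or 2.27%, and none fell, where 0.170% of all genes were higher and 0.151% lower by limma. At an unadjusted limma p under 0.05, 16 of the 88 were higher and 5 lower, where 5.79% and 5.39% of all genes were. IL1B stood at 21.5, 21.4 and 20.5 FPKM in controls and 48.5, 49.1 and 37.0 FPKM in the libraries labelled TGFbeta1 (log2 change 1.04, limma adjusted p = 0.0479). That call was lost without any 1 library other than TGFbeta1 replicate 6, at 0.132 to 0.182. It was also lost with no filter, an equal sum per library or no trend, at 0.0502 to 0.0703. With a replicate block the limma adjusted p of IL1B was 0.242. LCN2 stood at 67.9, 70.3 and 72.9 FPKM in controls and 116.1, 120.8 and 114.5 FPKM in the other libraries (log2 change 0.73, limma adjusted p = 0.0167), and lost its call without control 4, 5 or 6 or without replicate 4 labelled TGFbeta1, at 0.0549 to 0.0906. With a replicate block LCN2 lost its call as well (limma adjusted p = 0.212). RELA (log2 change -0.65, limma adjusted p = 0.74) and REL (0.10, limma adjusted p = 0.872) were not called.

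The difference between the sets was tested for the pathway genes in 1 model, as the effect in the second set minus that in the first. Of 91 tested, 13 had a lower and 2 a higher effect in the second set, 16.5% in all, beside 13.6% of all 10548 genes, a share not far from the background. Targets held 9 of the 13 lower and both of the higher genes. The lower ones included CXCL8 (-2.71, limma adjusted p = 0.0106), PLAU (-2.63, limma adjusted p = 0.000126), IL32 (-2.63, limma adjusted p = 1.31e-05), TLR2 (-2.12, limma adjusted p = 0.0427) and the chemokine gene CXCL3 (-2.02, limma adjusted p = 0.00106). IL32 lay below the filter in the second set, with means of 0.033 FPKM in controls and 0.563 FPKM in libraries labelled TGFbeta1. The log2(FPKM + 1) scale understates changes at such levels, so its difference does not show a smaller ratio there. LCN2 had the greatest difference of the pathway genes tested, 6.498 (limma adjusted p = 4.71e-11), since it fell in the first set and rose in the second, and BCL2L1, which encodes the survival protein Bcl-xL, had 0.35 (limma adjusted p = 0.0405). The differences of TLR2 and BCL2L1 lost their call in 9 and 10 of the 12 omissions of 1 library, that of TLR2 also at pseudocount 0.1 (-3.36, limma adjusted p = 0.181), as did that of IL32 (-1.46, limma adjusted p = 0.0541). BCL2L1 also lost its call with no trend, with shared transcripts and with a replicate block. Both other scalings (equal sums and median of ratios) ended it too. Over these settings its limma adjusted p ran from 0.0562 to 0.171. The difference of TLR2 lost its call with a replicate block as well (limma adjusted p = 0.0724). RELA (-0.93, limma adjusted p = 0.501) and REL (0.12, limma adjusted p = 0.78) showed no call.

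**Figure D5:**
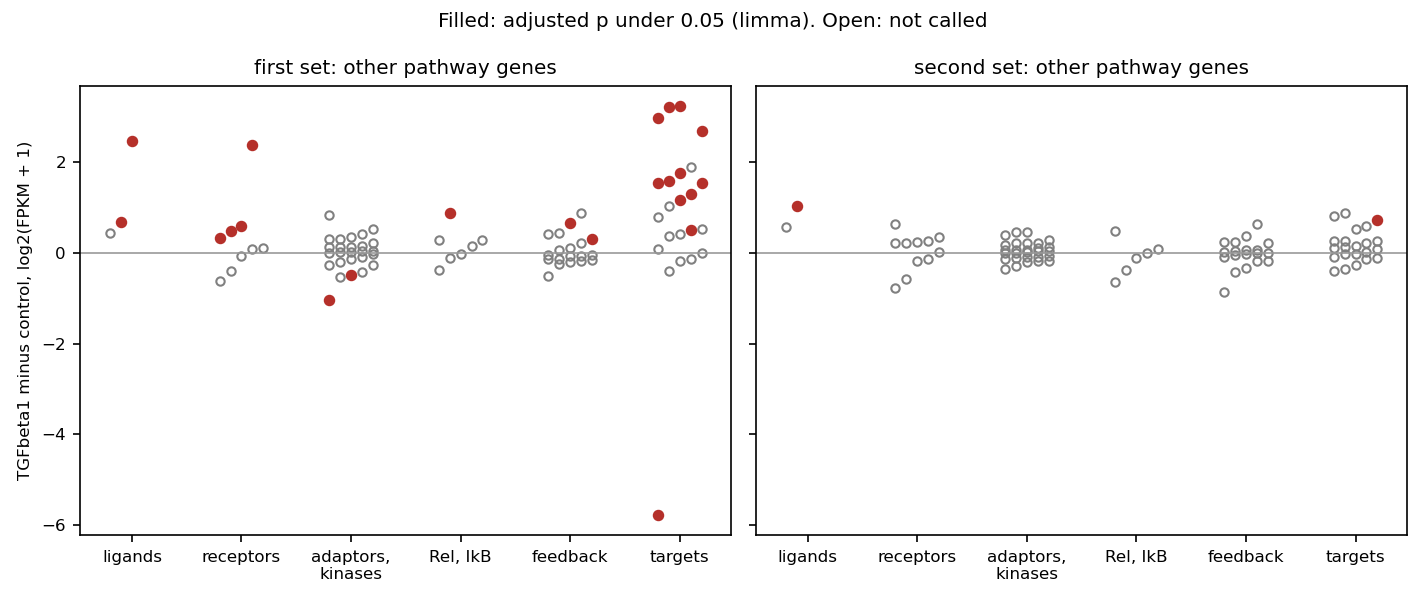
Log2 change of the 131 listed pathway genes that could be tested, by group, in the first and second set, with called genes marked. In the first set 20 of 87 rose and 3 fell, and 11 of the 20 were targets; in the second set 2 of 88 rose.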

How the data were processed

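RNA of MCF-12A cells was made into Illumina libraries, per the labels. FastQC, cutadapt, HISAT2 2.0.4, StringTie 1.2.3 and hg19 are named in the submitters' processing notes. The authors deposited FPKM per transcript in 2 tables; those of the first set name no unit in their headers, and FPKM is inferred there from the values and the tools. For the second set alone, the authors also deposited group means as log2(FPKM + 1). These were used only to check the unit of that set, and matched its library columns within 5.0e-09. The lowest mean FPKM of any transcript is 0.025 in one table and 0.250 in the other. The depth of the libraries is unknown, as no counts were at hand, and libraries summed to 291801.6 to 318269.5 and 338968.0 to 358432.6 FPKM.

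Transcripts were summed per gene (163 symbols updated), and genes with mean FPKM of at least 1 were fitted per set with limma 3.58.1 (trended, two-sided, R 4.3.3) on log2(FPKM + 1), Benjamini-Hochberg adjusted over all genes tested, and called under 0.05. A model over all 12 libraries, with a set term, gave the difference between sets. The members and lists were chosen with earlier results of these data known. Pathway genes named are the 5 largest calls in each direction, called Rel and IκB genes, RELA and REL; calls of small groups were also named, after their values were seen. Members are described with no p-values, though their calls in the fit over all genes are counted. Motif matches are described without tests, and limma values are given for some of the markers. Python 3.11.15, numpy 2.4.6, pandas 2.3.3 and matplotlib 3.10.9 were used. The fit was tested on simulated data. Some genes of the check and marker lists are not reported here.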

Additional observations from a re-analysis of the deposited data

Results flagged for a closer look

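BIRC3 was lower in each TGFbeta1 library of the first set than in every control (log2 change -0.41) and higher in each library labelled TGFbeta1 of the second (1.07). It is listed because the groups were apart in opposite directions in the 2 sets, and the difference was not tested. First-set levels of BIRC3 were low, from 1.34 to 2.43 FPKM. Its lower call was lost when any 1 first-set library was left out, and its higher call in most omissions of the second set.

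By limma's test of the difference, second minus first, 13 pathway genes had a lower and 2 a higher effect in the second set. The 7 listed here are the 5 largest of the lower ones and both higher ones. The values were 6.498 for LCN2, 0.35 for BCL2L1, -2.02 for CXCL3, -2.71 for CXCL8, -2.63 for IL32, -2.63 for PLAU and -2.12 for TLR2. That of IL32 sets levels below the filter in the second set (means of 0.033 and 0.563 FPKM) against higher ones, on a scale that understates low changes. Those of TLR2 and BCL2L1 lost their call in 9 and 10 of the 12 omissions of 1 library. The sets also differed in the 4 genes checked as induced by TGFbeta1, which rose in the first set and were not called in the second, and whose part in these differences was not tested.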

How the results depend on the processing

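The alternatives were pseudocount 0.1, no filter, a filter at 5 FPKM, median of ratios, equal sum per library, no trend, transcripts in both tables, a replicate block, and each library left out. The members' log2 changes kept their sign in every setting that gave a value (IRAK2 and BIRC3 of the first set were below the filter at 5 FPKM); outside the omissions 9 values moved beyond 1 SD and 149 did not. The count of members called higher in the first set ranged from 5 to 8, and BIRC3 lost its lower call with a replicate block.

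Of 2186 genes called in the first set, a replicate block left 1211 and omissions 1354 to 2030; of 34 in the second, equal sum left 17, no trend 20, the block 0 and omissions 0 to 23. Pathway genes called higher in the first set (20) were 10 at 5 FPKM and 13 to 18 with omissions, and those lower (3) were 6 without a filter. In the second set those higher (2) were 1 without a filter, with equal sum, without trend and with shared transcripts, 0 with the block and 0 to 3 with omissions, and those lower (0) were 1 with shared transcripts. The sign changed for REL in the first set with median of ratios (0.0078), equal sum (0.032) and omissions (-0.13 to 0.041), for RELA in the first set with omissions (-0.11 to 0.62), for REL in the second (-0.034 to 0.25) and for its set difference (-0.010 to 0.28). The cause was not tested. Whether replicate numbers pair the libraries was not settled. Correlations of same-numbered deviations were low, at 0.00746 to 0.0457, although 5 of 6 pairs correlated best with their own number. Depth is unknown, so it sets no limit that can be given.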
